A study of Mus musculus with 6 samples.

Results

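NuRD, BAF and the Polycomb complexes are the multi-subunit machines that remodel nucleosomes and silence genes in the embryonic heart, and 38 genes of these machines were followed in E10.5 mouse hearts with a conditional deletion of the zinc finger factor Casz1. The genes were listed by name and complex, with no threshold on their values but with earlier results of these data known: 13 of NuRD, 13 of BAF and its variant PBAF, 7 of PRC2 and 3 of PRC1, joined by Smyd1 and Smyd2, which encode lysine methyltransferases. Each of the 38 matched 1 entry of the 23290 in the authors' deposited table through its RefSeq identifiers, and all 38 were tested by the authors among 15387 tested entries. Mutant embryos were Nkx2-5Cre/+,Casz1f/f, so that both Casz1 alleles were floxed and Cre recombinase stood at 1 Nkx2-5 allele, which limits deletion to cells with a history of Nkx2-5 expression. Wild-type embryos, in the labels' term, were Nkx2-5+/+,Casz1f/+, with 1 floxed Casz1 allele and no Cre. The genotypes thus differ at Nkx2-5 as well as at Casz1, and these differences cannot be told apart here. All hearts came from embryos of C57BL/6 background. There were 3 mutant and 3 wild-type hearts, each processed on its own, but the table holds 1 pooled value per genotype, so the number of hearts that show a given direction is unknown here. Levels are FPKM, fragments scaled by transcript length and by library size, which allows different genes to be compared. Read depth per heart is unknown from this table, and FPKM summed to 536805 in mutant and 526072 in wild-type hearts.

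NuRD couples a Chd3 or Chd4 ATPase that moves nucleosomes to the Hdac1 and Hdac2 deacetylases. BAF complexes carry 1 of the ATPases Smarca4 and Smarca2 and open chromatin. PRC2 methylates histone H3 through Ezh2 or Ezh1 and PRC1 ubiquitinates histone H2A through Rnf2 or Ring1, both marks of silenced genes. In the heart, Smarcd3 (Baf60c) is the BAF subunit enriched in muscle and Smyd1 is a methyltransferase restricted to heart and skeletal muscle. The human CASZ1 protein has been reported to bind NuRD.

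The 250 bases before the start sites of these 2 muscle-enriched genes and of 1 paralog each are shown, since the promoters of the pair differ in base composition. Sequences are from RefSeq on build GRCm38.p6, given 5′ to 3′ on the gene's strand, and capitals mark CpG dinucleotides. The windows are chr5:24602003-24602252 on the minus strand for Smarcd3, chr15:99702037-99702286 on the plus strand for Smarcd1, chr6:71262282-71262531 on the minus strand for Smyd1 and chr1:189922292-189922541 on the minus strand for Smyd2. The RefSeq gene of Smyd2 runs on to 189922495, so most of its window lies within the annotated gene.
Smarcd3: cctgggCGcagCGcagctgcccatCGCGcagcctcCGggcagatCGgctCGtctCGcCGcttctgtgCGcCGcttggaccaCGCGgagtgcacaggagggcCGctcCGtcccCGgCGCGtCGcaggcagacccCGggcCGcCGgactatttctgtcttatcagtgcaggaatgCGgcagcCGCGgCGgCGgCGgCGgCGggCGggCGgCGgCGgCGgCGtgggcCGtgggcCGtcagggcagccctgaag
Smarcd1: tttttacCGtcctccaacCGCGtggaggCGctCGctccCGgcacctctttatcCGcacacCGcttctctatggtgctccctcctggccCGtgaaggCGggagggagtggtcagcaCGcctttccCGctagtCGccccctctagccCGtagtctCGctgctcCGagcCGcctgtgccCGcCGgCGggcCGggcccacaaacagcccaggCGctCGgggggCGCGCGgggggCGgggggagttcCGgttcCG
Smyd1: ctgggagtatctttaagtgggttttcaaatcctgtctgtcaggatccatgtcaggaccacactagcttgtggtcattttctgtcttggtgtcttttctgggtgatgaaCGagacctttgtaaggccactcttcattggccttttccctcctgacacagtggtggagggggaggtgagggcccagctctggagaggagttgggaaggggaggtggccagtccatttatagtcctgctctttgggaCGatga
Smyd2: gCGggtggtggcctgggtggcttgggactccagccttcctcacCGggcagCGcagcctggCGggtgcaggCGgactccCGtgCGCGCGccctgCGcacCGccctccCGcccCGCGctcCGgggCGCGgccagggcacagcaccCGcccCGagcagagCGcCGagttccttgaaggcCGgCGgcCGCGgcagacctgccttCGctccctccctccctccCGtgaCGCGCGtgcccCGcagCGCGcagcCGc

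Smarcd3, Smarcd1 and Smyd2 start in CpG-rich sequence, and Smyd1 does not. The windows held 38 CpG in Smarcd3, 29 in Smarcd1, 2 in Smyd1 and 34 in Smyd2, and the ratio of observed to expected CpG was 1.06, 0.919, 0.126 and 0.886 in the same order. RefSeq promoters matched 32 of the 38 genes, with 38 start sites in all, and a ratio of at least 0.6 was found at 35 of these (92.1%) against 34.0% of all 32851 promoters. Smyd1 was the lowest of the matched start sites, and start sites of Mtf2 (0.149) and Smarcd2 (0.201) were also below 0.6. Searched on both strands, the Smyd1 window held 1 match to TATAAA, found in 12.4% of all promoters. That match lies on the strand opposite to the gene. The window also held 1 match to AAGTG, a core of NKX2-5 sites, found in 40.7%. The E-box CANNTG, found in 66.2% of all promoters, occurred 1 time in Smarcd3. AGATAA, 1 form of the GATA motif (9.99% of promoters), and the CArG box of SRF (1.47%) had no match in these 4 windows. Other forms of the GATA motif were not searched, such as TGATAA, which the Smarcd3 window holds on the opposite strand. These are letter matches only, and some patterns could overlap one another.

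The heart expressed the whole set, and none of it was called different in the mutants. By the authors' deposited values 0 of 38 genes passed at q under 0.05 and 0 had an unadjusted p under 0.05 in the Cuffdiff test, the 1 test available here. Among all tested entries, 0.422% passed at q and 3.17% had an unadjusted p under 0.05, so a count of 0 among 38 genes is near these shares. In whole hearts, fewer cells of a type and less RNA per cell cannot be told apart. Levels spanned 1.05 to 154 FPKM in mutant and 1.51 to 155 FPKM in wild-type hearts, with medians of 25.4 FPKM in mutant and 26.3 FPKM in wild-type hearts, and 31 of 38 genes stood at 10 FPKM or more in both genotypes. Rbbp7 was the highest and Phf19 the lowest of the set in each genotype, and 22 of 38 genes held the same position in the order of levels.

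**Figure D1:**
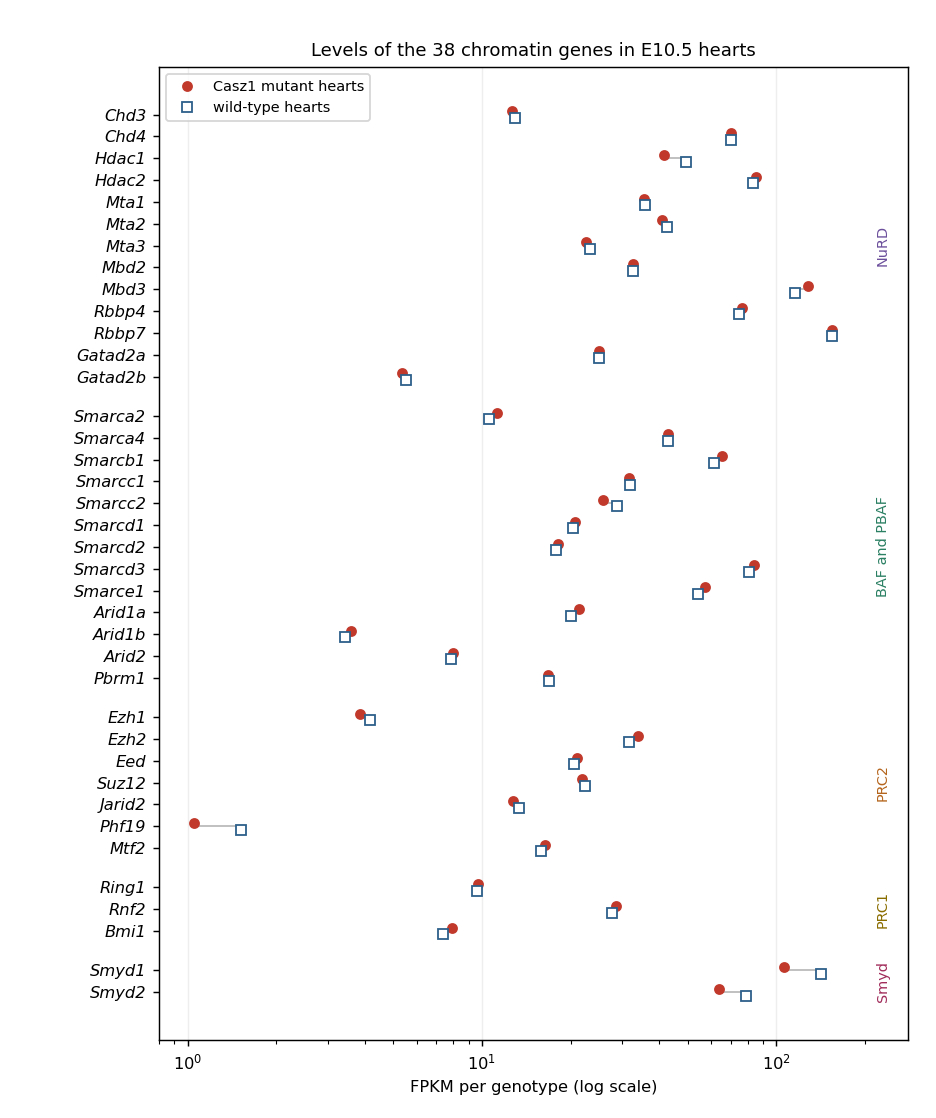
Level of each of the 38 genes as FPKM on a log axis, in Casz1 mutant hearts (filled circles) above wild-type hearts (open squares), 1 pooled value per genotype. The 2 marks nearly coincide for most genes and part visibly for Phf19, Smyd1, Smyd2 and Hdac1, which are all lower in mutant hearts.

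Fold changes were small. The median log2 fold change of the 38 genes, mutant over wild-type, was 0.0019, with 19 above 0 and 19 below, against a median of -0.017 over the 12150 tested entries with at least 1 FPKM. With fold changes centred on that median of the 12150 entries, 26 genes lay above 0 and 12 below, so the split by sign depends on the scaling. The median size of the change, regardless of direction, was 0.042 in log2 units for the set, 0.086 for those 12150 entries and 0.072 for the 6465 entries with at least 10 FPKM. A change smaller than 0.1 was seen for 28 of 38 genes (73.7%), against 55.6% of entries with at least 1 FPKM and 63.7% of those with at least 10 FPKM. Only Phf19, Smyd1, Smyd2 and Hdac1 exceeded 0.2, all lower, and the other 34 genes lay between -0.15 and 0.14. The authors' test leaves room around each value: the implied SE of a log2 fold change had a median of 0.295 in the set. The 95% interval lay inside a 2-fold change either way for 36 of 38 genes, but inside a 1.5-fold change for only 7. For the other genes the interval thus includes a 1.5-fold change in at least 1 direction. The smallest change called anywhere in the authors' deposited table was 2.29-fold.

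**Figure D2:**
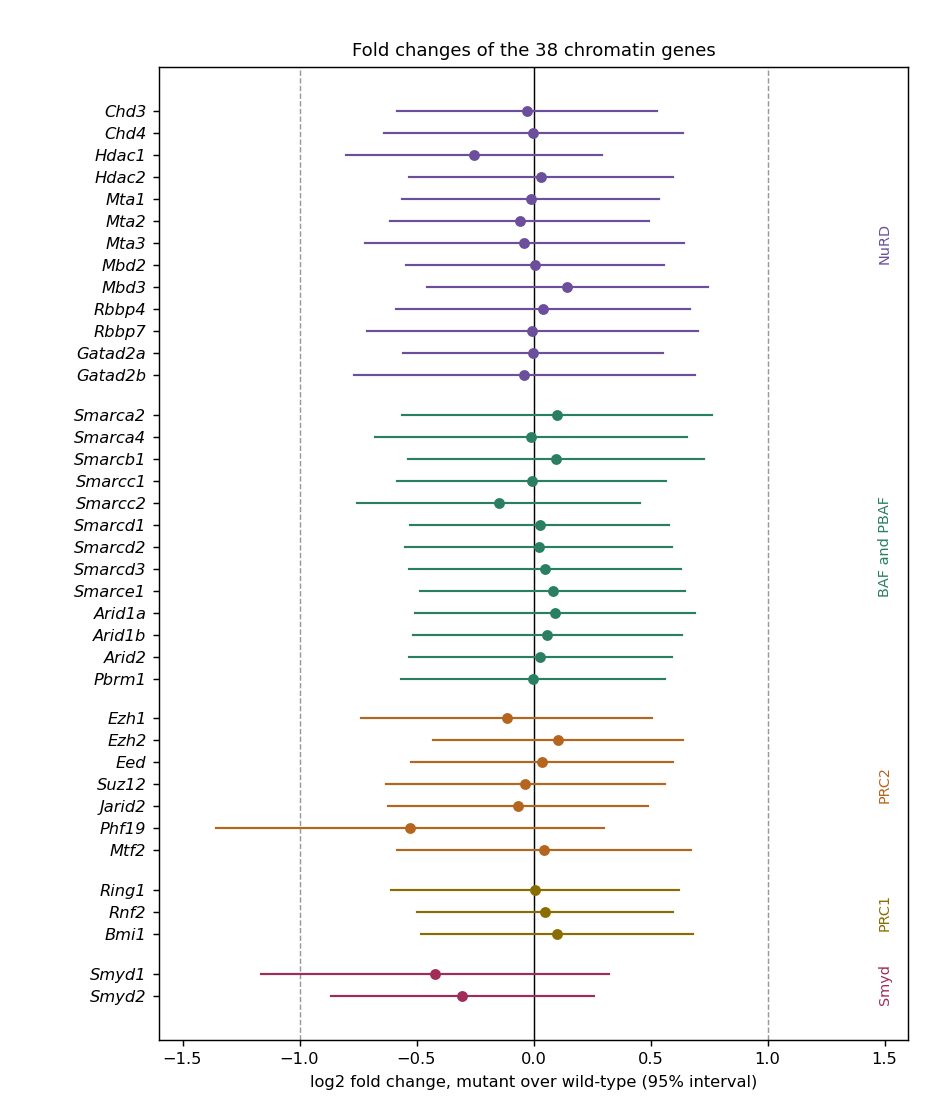
Log2 fold change of each gene, mutant over wild-type, with the 95% interval implied by the authors' test statistic, and dashed lines at a 2-fold change either way. Every interval crosses 0, and those of Phf19 and Smyd1 reach beyond the lower dashed line, to -1.36 and -1.16.

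**Figure D3:**
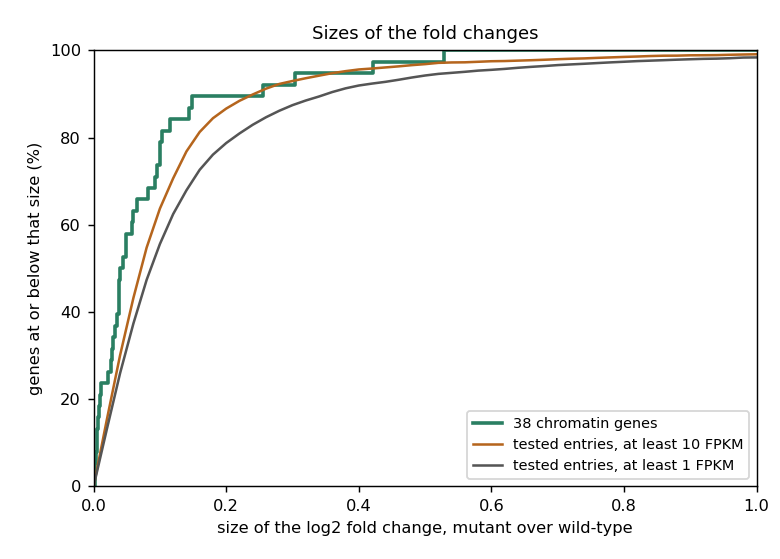
Cumulative share of genes (vertical axis, percent) at or below a given size of the log2 fold change (horizontal axis), for the 38 genes and for all tested entries with at least 10 or at least 1 FPKM. The curve of the 38 genes reaches 73.7% at a size of 0.1, where the other curves stand at 63.7% and 55.6%.

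Within NuRD, the catalytic ATPases read almost the same in both genotypes. Chd4, the main remodelling ATPase of the complex, read 70.0 FPKM in mutant and 70.0 FPKM in wild-type hearts in the authors' deposited table (log2 -0.0014, 95% interval -0.64 to 0.64). Chd3, its less abundant paralog, read 12.7 FPKM in mutant and 12.9 FPKM in wild-type hearts. Chd4 thus made up 84.7% of the summed level of both ATPases in mutant and 84.4% in wild-type hearts. The deacetylases parted slightly. Hdac1 read 41.5 FPKM in mutant and 49.5 FPKM in wild-type hearts, with the lowest log2 fold change of NuRD in the authors' deposited table (-0.26, SE 0.279, 95% interval -0.80 to 0.29, p = 0.359, q = 1.00). Hdac2 read 85.5 FPKM in mutant and 83.6 FPKM in wild-type hearts (log2 0.03), which put its share of the pair at 67.3% in mutant and 62.8% in wild-type hearts. That was the largest shift of balance among 13 groups of related genes. The Hdac1 value is uncertain in one respect, since the RefSeq table lists a processed copy, Hdac1-ps, that could share reads.

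The remaining NuRD subunits had log2 fold changes from -0.06 to 0.14. Mbd3, the methyl-CpG-binding family member that defines one form of NuRD, read 128 FPKM in mutant and 116 FPKM in wild-type hearts, the highest log2 fold change of the complex (0.14, SE 0.307, 95% interval -0.46 to 0.75, p = 0.638 in the authors' deposited table). Mbd2, which takes its place in the other form and binds methylated DNA, read 32.6 and 32.5 FPKM in mutant and wild-type hearts. The alternative Mta scaffolds, which anchor the deacetylases, were all present: Mta2 read 40.7 and 42.4 FPKM, Mta1 read 35.5 and 35.8 FPKM, and Mta3 read 22.6 and 23.2 FPKM in mutant and wild-type hearts. Gatad2a, which bridges the Mbd protein to the ATPase, outweighed Gatad2b, at 25.0 FPKM in mutant and 25.0 FPKM in wild-type hearts against 5.36 and 5.51 FPKM for Gatad2b in mutant and wild-type hearts. The histone-binding proteins Rbbp7 and Rbbp4, which PRC2 also uses, were the most abundant pair. Rbbp4 read 76.6 FPKM in mutant and 74.6 FPKM in wild-type hearts. Rbbp7 read 154 and 155 FPKM in mutant and wild-type hearts, but its entry spans 945 kb of the X chromosome where the RefSeq gene covers 18.7 kb, across 5 other protein-coding genes, so this level is less certain than the rest. In all, 4 NuRD genes lay above and 9 below 0, with a median log2 of -0.0047, which became 0.01 after centring on the median of the 12150 entries.

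Of the BAF subunits 9 of 13 lay above 0 and 4 below, with a median log2 of 0.03. Smarcd3 was the most abundant gene of this group in both genotypes. It read 83.7 FPKM in mutant and 80.9 FPKM in wild-type hearts, a log2 fold change of 0.05 in the authors' deposited table (SE 0.297, 95% interval -0.53 to 0.63, p = 0.868, q = 1.00). The interval corresponds to 0.691 to 1.55 times the wild-type level. Its paralogs, which occupy the same position in the complex, were lower: Smarcd1 read 20.8 FPKM in mutant and 20.4 FPKM in wild-type hearts, and Smarcd2 read 18.2 and 17.9 FPKM in mutant and wild-type hearts. Smarcd3 accordingly supplied 68.2% of the summed Smarcd level in mutant and 67.9% in wild-type hearts. The Smarcd3 entry lies on chromosome 5 from 24592622 to 24602002 in mm10 and overlaps the gene Chpf2, so reads at that overlap could be assigned to either gene. It covers 9.38 kb of a 31.8 kb RefSeq gene that runs on to 24624456, so the promoter shown is that of the shorter transcript. The Gatad2b entry likewise covers 16.5 kb of a 70.2 kb RefSeq gene, and transcripts outside these entries are not in their levels.

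The ATPase Smarca4 (Brg1) read 42.7 FPKM in mutant and 43.0 FPKM in wild-type hearts, and its alternative Smarca2 (Brm) read 11.3 and 10.53 FPKM in mutant and wild-type hearts, the highest log2 fold change of BAF (0.10, SE 0.337, 95% interval -0.56 to 0.76, p = 0.765 in the authors' deposited table). The core scaffold Smarcc2 had the lowest, with 25.8 FPKM in mutant and 28.7 FPKM in wild-type hearts (-0.15, SE 0.309, 95% interval -0.75 to 0.46, p = 0.629 in the authors' deposited table). Its paralog Smarcc1 read 31.7 and 31.8 FPKM in mutant and wild-type hearts. The shared core subunits Smarcb1, at 65.4 and 61.2 FPKM, and Smarce1, at 57.2 and 54.0 FPKM, were among the higher levels of the group in mutant and wild-type hearts. RefSeq lists a pseudogene, Smarce1-ps1, that could share reads with Smarce1.

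Subunits that set the type of BAF complex differed little in value, with log2 fold changes from -0.0037 to 0.09. Arid1a, which marks canonical BAF, read 21.4 FPKM in mutant and 20.0 FPKM in wild-type hearts, and Arid1b, its alternative, read 3.58 and 3.44 FPKM in mutant and wild-type hearts. The PBAF-specific subunits Pbrm1, at 16.8 FPKM in mutant and 16.8 FPKM in wild-type hearts, and Arid2, at 7.98 and 7.82 FPKM in mutant and wild-type hearts, lay between them. Of the level summed over these 4 genes, Arid1a held 43.0% in mutant and 41.6% in wild-type hearts and Pbrm1 held 33.8% in mutant and 35.0% in wild-type hearts. Pbrm1 is grouped here with the Arid genes but is not their paralog. Across all 13 groups of related genes, shares differed between genotypes by at most 4.53 percentage points, and 11 groups stayed within 2 points. These shares rest on 1 pooled value per genotype and carry no error.

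**Figure D4:**
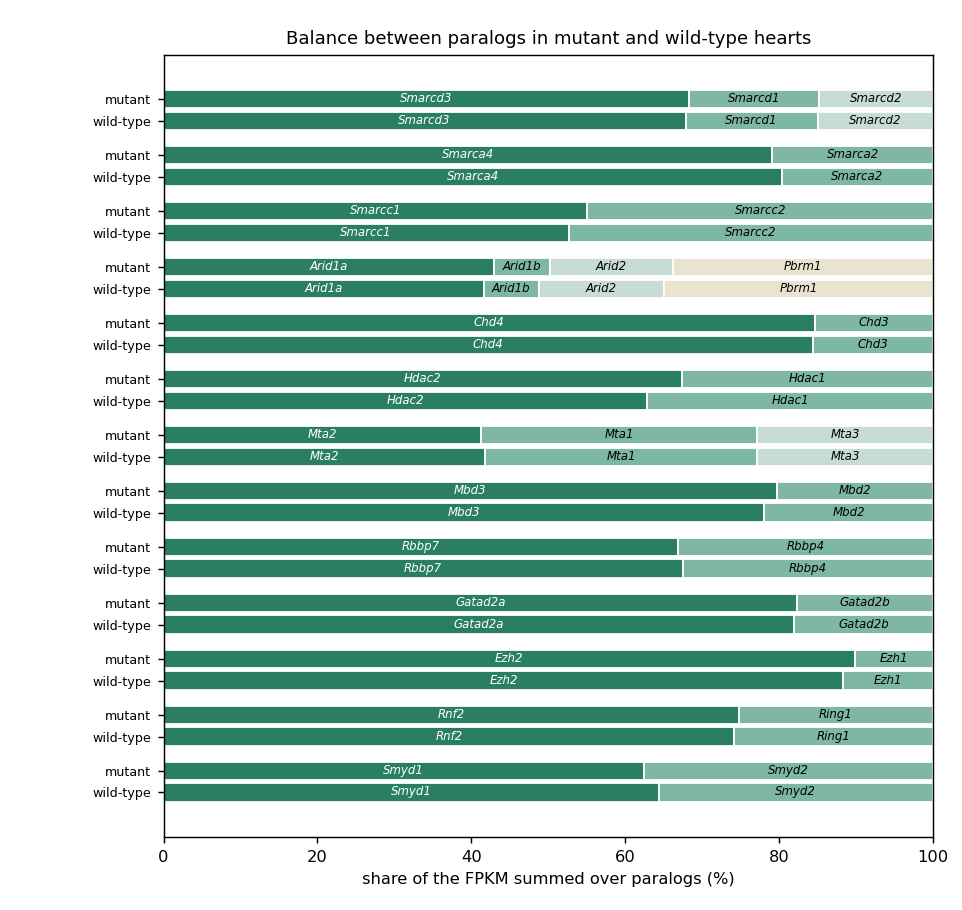
Share of the FPKM summed over each group of related genes (horizontal axis, percent), with mutant hearts above wild-type hearts in each pair of bars. The groups are paralogs, except that Pbrm1 stands with the Arid genes. The leading gene is the same in both genotypes for all 13 groups, for example Smarcd3 with 68.2% in mutant and 67.9% in wild-type hearts.

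PRC2 held the gene with the lowest level and the lowest log2 fold change of the set, Phf19, beside core subunits that differed little. Ezh2, the main methyltransferase of embryonic tissue, was its most abundant subunit, at 34.0 FPKM in mutant and 31.6 FPKM in wild-type hearts, and had its highest log2 fold change (0.10, SE 0.273, 95% interval -0.43 to 0.64, p = 0.706 in the authors' deposited table). Ezh1, the paralog more typical of non-dividing tissue, read 3.85 and 4.17 FPKM in mutant and wild-type hearts, which left Ezh2 with 89.8% of the pair in mutant and 88.3% in wild-type hearts. Its obligate partners also read alike: Suz12, the scaffold, read 21.9 and 22.4 FPKM, and Eed, which reads the methyl mark, read 21.0 and 20.5 FPKM in mutant and wild-type hearts. None of these 4 genes differed by more than 0.12 in log2 units.

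Among accessory subunits of PRC2, Phf19 stood apart in value from Jarid2 and Mtf2. Jarid2, needed in mice for ventricular development and a partner that recruits PRC2, read 12.8 FPKM in mutant and 13.4 FPKM in wild-type hearts (log2 -0.07). The Polycomb-like protein Mtf2 read 16.3 and 15.8 FPKM in mutant and wild-type hearts. Phf19, another Polycomb-like protein, read 1.05 FPKM in mutant and 1.51 FPKM in wild-type hearts, the lowest log2 fold change of all 38 genes in the authors' deposited table (-0.53, SE 0.423, 95% interval -1.36 to 0.30, p = 0.211, q = 1.00). This level, 30.7% lower, was a larger change than 94.7% of those among the 12150 entries with at least 1 FPKM, at a level where the implied SE was also the largest of the set. With a pseudocount of 1 FPKM the Phf19 log2 fold change was -0.29, and those of Smyd1 (-0.42) and Smyd2 (-0.30) were then lower. Phf19 lies on chromosome 2 from 34893755 to 34913976. The PRC2 genes together gave 3 above 0, 4 below and a median log2 of -0.04.

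The 3 PRC1 genes all lay slightly above 0. Rnf2, the main ubiquitin ligase of the complex, read 28.6 FPKM in mutant and 27.6 FPKM in wild-type hearts (log2 0.05, SE 0.279, 95% interval -0.50 to 0.60, p = 0.860 in the authors' deposited table). Ring1, the other ligase, read 9.66 and 9.62 FPKM in mutant and wild-type hearts, and Bmi1, which stimulates the ligases, read 7.92 and 7.39 FPKM in mutant and wild-type hearts, the highest log2 fold change of this complex (0.10, SE 0.296, 95% interval -0.48 to 0.68, p = 0.735 in the authors' deposited table). Each of these differences was smaller than its SE.

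Both Smyd genes read lower in mutant hearts, and neither passed the test. Smyd1 read 106 FPKM in mutant and 142 FPKM in wild-type hearts in the authors' deposited table, a level 25.3% lower (log2 fold change -0.42 with SE 0.378, 95% interval -1.16 to 0.32, p = 0.266, q = 1.00). The interval reaches from 0.447 to 1.25 times the wild-type level and so holds both an equal level and one 2-fold lower. Smyd2, which methylates histones and other proteins, read 63.7 FPKM in mutant and 78.7 FPKM in wild-type hearts (log2 -0.30, SE 0.287, 95% interval -0.87 to 0.26, p = 0.289, q = 1.00 in the authors' deposited table). By size, these changes exceeded those of 92.4% (Smyd1) and 87.7% (Smyd2) of the 12150 entries. Smyd1 lies on chromosome 6 from 71213940 to 71262281 and Smyd2 on chromosome 1 from 189880492 to 189922288. The other Smyd genes read much lower: Smyd5 26.3 and 25.6 FPKM, Smyd4 3.23 and 3.46 FPKM and Smyd3 1.87 and 1.99 FPKM in mutant and wild-type hearts, with log2 fold changes from -0.10 to 0.04.

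Cardiomyocyte markers went both ways beside Smyd1: 3 of 8 usable genes lay above and 5 below 0, from -0.79 for Nkx2-5 to 0.56 for Myl7, and summed to 16009 FPKM in mutant and 13920 FPKM in wild-type hearts. Without Myl7 the other 7 summed to 8513 FPKM in mutant and 8840 FPKM in wild-type hearts, the opposite order. Nkx2-5 read 82.9 FPKM in mutant and 143 FPKM in wild-type hearts. It carried Cre at 1 allele in mutants alone, so its value need not follow cardiomyocyte content. Tnnt2 read 1974 and 1974 FPKM in mutant and wild-type hearts, and Myh6 and Myh7 had too many fragments for the authors' tool and no usable value. Endothelial markers were below 0 for 6 of 6 genes (180 and 209 FPKM summed in mutant and wild-type hearts) and proliferation markers for 7 of 8 (605 FPKM in mutant and 630 FPKM in wild-type hearts). Macrophage markers were below 0 for 5 of 5 genes (5.25 FPKM summed in mutant and 20.8 FPKM in wild-type hearts), but the other 4 summed to 3.34 FPKM in mutant and 3.97 FPKM in wild-type hearts without Lyz2. The lysozyme gene Lyz2 was the 1 called gene of these 5 and fell (1.91 FPKM in mutant and 16.9 FPKM in wild-type hearts, log2 -3.14, q = 1.11e-09 in the authors' deposited table). Calls in the lower direction make up 0.117% of all tested entries. Erythroid markers were above 0 for 2 of 3 (272 FPKM in mutant and 255 FPKM in wild-type hearts). Epicardial markers were below 0 for 4 of 5 genes (135 and 140 FPKM in mutant and wild-type hearts). Foregut endoderm markers lay above 0 for 6 of 6 genes, of which Epcam, Cdh1, Foxa1, Shh and Cldn6 were called (5 of 6, against 0.305% of all tested entries called higher), and summed to 16.5 FPKM in mutant and 3.45 FPKM in wild-type hearts. Smooth muscle markers (871 FPKM in mutant and 467 FPKM in wild-type hearts) and neural markers (20.4 FPKM in mutant and 15.2 FPKM in wild-type hearts) were above 0 for 3 of 4 genes each. Among these, Actg2, a smooth muscle actin, was called and rose (7.72 FPKM in mutant and 1.37 FPKM in wild-type hearts, q = 2.67e-05 in the authors' deposited table). It was the 1 called of 4 tested smooth muscle markers, against 0.305% of all tested entries called higher. The smooth muscle sum without Tagln was 104.7 FPKM in mutant and 133 FPKM in wild-type hearts. Acta2, also listed as a smooth muscle marker, had too many fragments for the authors' tool and is in none of these sums. The part of these cell types in the small differences of the chromatin genes was not tested. The targeted gene Casz1 itself read 4.68 FPKM in mutant and 6.61 FPKM in wild-type hearts, and was not called (log2 -0.50, q = 1.00 in the authors' deposited table).

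The 38 genes lie on 19 chromosomes, and 6 share a chromosome with a targeted locus. On chromosome 4, Arid1a, Hdac1 and Rbbp4 lie 15.05, 19.3 and 19.5 Mb from Casz1, with log2 fold changes of 0.09, -0.26 and 0.04. On chromosome 17, Ring1, Arid1b and Mta3 lie 7.18, 21.5 and 56.9 Mb from Nkx2-5, with log2 fold changes of 0.0051, 0.06 and -0.04. Entries of 4 of the 38 genes overlap another protein-coding gene, those of Smarcd3, Rbbp7, Rbbp4 and Pbrm1.

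Other subunits and partners of the same complexes were not called either. Of 52 further genes, 46 were tested, and 0 passed at q under 0.05 or had an unadjusted p under 0.05 in the authors' deposited table, with 17 above 0, 29 below and a median log2 of -0.07. Over all tested entries these shares were 0.422% and 3.17%, so counts of 0 are near them. Among NuRD partners the cyclin-dependent kinase-associated subunit Cdk2ap1 read 145 and 142 FPKM, the GATA cofactor Zfpm1 read 46.3 and 42.4 FPKM and Sall1 read 6.36 and 6.43 FPKM in mutant and wild-type hearts. Chd5, the neural Chd paralog, was too low for a test at 0.037 and 0.027 FPKM in mutant and wild-type hearts. In BAF the actin-like subunit Actl6a read 48.3 and 46.6 FPKM, Dpf2 read 41.1 and 44.5 FPKM and the PBAF subunit Brd7 read 40.2 and 40.2 FPKM in mutant and wild-type hearts. The neuronal subunit Actl6b, at 0.015 and 0.010 FPKM in mutant and wild-type hearts, was not tested. The muscle-enriched Dpf3 read 7.49 and 8.50 FPKM in mutant and wild-type hearts, a value named for its tissue and outside the rule for named genes.

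For PRC2, Aebp2 read 16.0 and 17.4 FPKM, the Polycomb-like Phf1 read 7.78 and 8.87 FPKM and Epop read 5.36 and 3.83 FPKM in mutant and wild-type hearts (log2 0.48, 95% interval -0.22 to 1.19 for Epop). For PRC1 the polyhomeotic subunit Phc2 read 46.7 and 42.7 FPKM, Yaf2 read 28.3 and 27.0 FPKM and the Bmi1 paralog Pcgf2 read 16.7 and 16.2 FPKM in mutant and wild-type hearts. Of these further PRC1 genes 13 of 18 tested lay below 0. Scmh1 had the lowest log2 fold change of all 46 further genes tested. It read 10.9 FPKM in mutant and 15.1 FPKM in wild-type hearts (log2 -0.47, 95% interval -1.03 to 0.09). Demethylases gave 0 calls among 7 genes, with 2 above 0, 5 below and a median log2 of -0.02. Kdm1a read 45.0 and 45.4 FPKM, Kdm5c read 18.4 and 21.6 FPKM and Kdm5b read 12.7 and 11.7 FPKM in mutant and wild-type hearts. Other remodellers and histone modifiers gave 0 calls among 24 genes, with 9 above 0, 15 below, a range of -0.14 to 0.06 and a median of -0.01 in log2 units. For the demethylases and these genes, 0 calls is near the 0.422% called among all tested entries. In mutant and wild-type hearts Sin3b read 84.8 and 83.5 FPKM, Hdac3 read 39.5 and 41.0 FPKM and Baz1b read 31.3 and 32.4 FPKM.

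Of 3 short lists of genes linked to these regulators in mouse hearts, values are given as a description only. The lists were drawn up with earlier results of these data known, so neither their direction nor their spread is independent of those results. Several of their genes were under 1 FPKM, where the SE was larger (0.729 for Pax6, 0.898 for Cdkn2a, 0.578 for Cdkn2b and 0.518 for Myh11). Among 7 genes linked to PRC2, such as factors that rise when Ezh2 is deleted, 0 were called, 4 had an unadjusted p under 0.05 and were higher (1.99% of all tested entries), and the median log2 was 0.70. They included Isl1 at 8.21 FPKM in mutant and 4.00 FPKM in wild-type hearts (log2 1.04, implied SE 0.345, p = 0.00261 and q = 0.268 in the authors' deposited table), the pacemaker channel Hcn4 at 12.6 and 7.80 FPKM in mutant and wild-type hearts (log2 0.70) and Eya1 at 1.11 and 0.381 FPKM in mutant and wild-type hearts (log2 1.54). Pax6 was the remaining one, under 1 FPKM in both genotypes, with a log2 fold change of 1.91. Bmp10 read 15.3 and 15.5 FPKM, and Cdkn2a, a well-known Polycomb target, read 0.110 and 0.090 FPKM in mutant and wild-type hearts. Ezh2 in the same hearts read 34.0 FPKM in mutant and 31.6 FPKM in wild-type hearts. Markers of foregut endoderm (6 of 6) and 3 of 4 tested neural markers were also above 0 in these pooled samples. Their part in the values of this list was not tested.

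Of 7 usable genes linked to Chd4, which represses skeletal and smooth muscle isoforms in the heart, 1 was called and fell, the skeletal actin Acta1 (142 FPKM in mutant and 334 FPKM in wild-type hearts, log2 -1.23, implied SE 0.317 and q = 0.0273 in the authors' deposited table). Calls in the lower direction make up 0.117% of all tested entries. The 4 genes with an unadjusted p under 0.05, against 3.17% of all tested entries, were split. Tnni2 (log2 -0.98) and Acta1 were lower, while Tagln, at 767 and 333 FPKM in mutant and wild-type hearts, and Myh11 (log2 1.52, under 1 FPKM) were higher, and the list median was -0.38. Myl1 read 229 and 255 FPKM and Cnn1 read 96.0 and 132 FPKM in mutant and wild-type hearts. The smooth muscle marker list shares Tagln, Myh11, Cnn1 and Acta2 with these genes, and Acta2 had no usable value. Foregut endoderm markers were also higher in the same pooled samples. The part of these cell types in the values of this list was not tested.

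Of 8 genes linked to Smyd1 or Smarcd3, 0 were called and 2 were lower at an unadjusted p under 0.05 (1.18% of all tested entries), with 4 above 0, 4 below and a median log2 of -0.24. These were the ventricular factor Irx4, which depends on Smyd1 in mice, at 16.2 FPKM in mutant and 31.4 FPKM in wild-type hearts (log2 -0.95, SE 0.286, p = 0.000859, q = 0.136 in the authors' deposited table), and the natriuretic peptide gene Nppa at 888 and 1755 FPKM in mutant and wild-type hearts (log2 -0.98, q = 0.746). Hand2, another gene that falls when Smyd1 is deleted in mice, read 78.5 and 78.2 FPKM in mutant and wild-type hearts (log2 0.0051, 95% interval -0.56 to 0.57). Myl7 read 7496 FPKM in mutant and 5080 FPKM in wild-type hearts, and Nppb 101 and 142 FPKM in mutant and wild-type hearts. These 2 genes and the remaining 3 of the list had log2 fold changes from -0.49 to 0.56. Nppa lies on chromosome 4 from 148000746 to 148002067, and Nppb from 147985789 to 147987205. The targeted gene Casz1 lies near them on the same chromosome, from 148804392 to 148954892. The part of this position in the lower values of Nppa and Nppb was not tested.

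**Figure D5:**
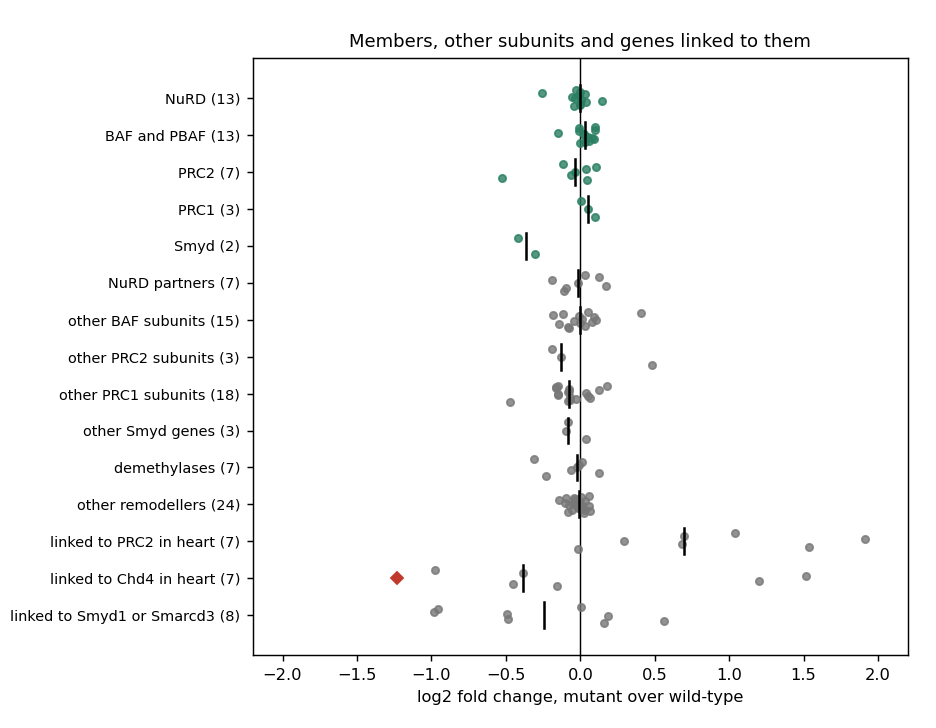
Log2 fold change, mutant over wild-type, of each tested gene (1 point each, number in brackets) in the complexes, in further subunits and in genes linked to them, with the list median as a black bar and the called gene Acta1 as a diamond. The bottom 3 lists were drawn up with earlier results known and run from -1.23 for Acta1 to 1.91 for Pax6, which is under 1 FPKM in both genotypes.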

How the data were processed

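RNA of individual hearts was sequenced from TruSeq libraries, per the labels. The submitters' processing notes name the build mm10 and the tools Cuffdiff, Cufflinks 2.1.1, Bowtie2 2.1.0.0 and TopHat2 2.0.8. The single table holds FPKM that the authors computed per genotype, with 0 columns per heart, and normalisation and dispersion settings are not given in the sources used here. The authors deposited a log2 fold change and a test statistic (score columns, as infinite folds are a placeholder) with a p-value and q-value for 15387 of 23290 entries. Of the tested entries, 86 stood at 0 in 1 genotype and have no fold.

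Deposited p followed the normal tail of the statistic within 1e-05, so each SE was computed as log2 fold change over statistic, with 95% normal intervals. A run on simulated data checked the arithmetic only. Its noise was normal with the same SE, so it cannot show whether these intervals suit the hearts. RefSeq and GENCODE tables of the same assembly named 99.3% of entries. Calls are the authors' q under 0.05. Members and lists were chosen with earlier results of these data known. From the lists of linked genes, 1 gene is not reported here. Named genes were all members and, from the other lists, called genes, those with an unadjusted p under 0.05 and at least 1 FPKM, and the 3 highest of those tested. Chd5, Actl6b, Dpf3, Scmh1, Pax6, Cdkn2a, Cdkn2b, Myh11, Cnn1 and Hand2 were named outside this rule after their values were seen, as were all named cell type markers. Nothing says whether hearts shared litters. Software was Python 3.11.15 with pandas 2.3.3, scipy 1.17.1, numpy 2.4.6 and matplotlib 3.10.9.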

Additional observations from a re-analysis of the deposited data

How the results depend on the processing

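Recomputed settings did not change a call among the 38 genes. The count of 0 at q under 0.05 stayed 0 at q under 0.1, at an unadjusted p under 0.05, with the adjustment recomputed over entries with at least 1 FPKM, and with the test statistic centred on its median. Centring moved every log2 fold change by 0.017, which put 26 genes above and 12 below 0 instead of 19 and 19, and the 7 genes that changed sign were all within 0.012 of 0. The medians of the set, of each complex and of the Smyd pair moved by at most 0.017 under centring and 0.0038 with a pseudocount of 1 FPKM. For the set alone, a pseudocount of 0.1 FPKM and keeping genes of at least 10 FPKM were also run and moved its median by at most 0.0033. The median of NuRD changed sign under centring, at 0.01 against -0.0047. Single genes moved by at most 0.023 under these settings, except Phf19, which moved to -0.29 with a pseudocount of 1 FPKM, against -0.53 as deposited. No paired analysis was possible because the table holds 1 pooled value per genotype, and leaving out each heart in turn was not run for the same reason. Depth is unknown without counts. By the implied SE, the 95% interval lay inside a 1.5-fold change for 7 of 38 genes, and the smallest called change was 2.29-fold.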
